A study of Saccharomyces cerevisiae with 24 samples.

Results

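Prp40, a protein of the U1 snRNP, was followed on the genes of budding yeast under a pair of conditions that touch transcription elongation, a strain labelled spt5_194 and cells given 6-azauracil. The comparison is direct: the log2 ratio of each gene in the spt5_194 column minus its log2 ratio in the 6-azauracil column, without an untreated column between them. It uses 2 of the 24 columns of the series. Both columns come from chromatin immunoprecipitation followed by hybridisation to spotted open reading frames (ChIP-chip) of Prp40-3myc, a C-terminal myc tag at the gene's own locus, per the labels. Both cultures were grown vegetatively in SC-URA medium to an O.D. of 0.6. The spt5_194 column has no further treatment in its label, and the 6-azauracil column had 80 ug/ml of the drug for 30 min before fixation. Genotype and drug therefore both differ between the columns, and the labels give neither the number of clones nor any shift of temperature for spt5_194.

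The U1 snRNP recognises the 5' splice site of an intron, and Prp40 is one of its proteins, so on chromatin it is known for joining intron genes while they are transcribed. Spt5 is an elongation factor that travels with RNA polymerase II. 6-azauracil lowers the pools of GTP and UTP, the substrates of the polymerase, and cells respond to it through IMP dehydrogenase, the enzyme of guanine nucleotide synthesis. In yeast most introns of strongly transcribed genes lie in ribosomal protein genes, many of which are duplicated.

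Each column combines 3 biological replicates into a single value per gene, so no spread between replicates could be computed, no difference was tested, and every difference below describes these 2 columns. Of 6284 probes, 5674 were nuclear protein-coding genes of the reference table, and 5661 remained after 13 genes were left out. Those 13 stood at the limit of the scale, a log2 ratio of -6.64, in the spt5_194 column, and the 6-azauracil column had no such value. Among the 5661 genes, 225 carry an intron in a list written from memory, 89 of them for ribosomal proteins, and 5374 carry none, 37 of them for ribosomal proteins. The other 62 genes were put in neither class. The labels put the immunoprecipitate in Cy5 and whole-cell extract in Cy3, which makes immunoprecipitate over extract the likely ratio, but the direction is not settled. The 6-azauracil column had a Pearson correlation of -0.34 with the Mud2 profile over 6206 probes (Spearman -0.40). The spt5_194 column had one of -0.36 with Mud2 plus RNase over 6284 probes (Spearman 0.05). Of 82 very low genes of the spt5_194 column, described below, 11 lay beyond 2 in size in Mud2 plus RNase, against 3 of 5579 others. The part of those genes in the correlation was not tested. Both Prp40-3myc columns had positive Spearman correlations with the Prp40-9myc profile over 6209 probes, 0.41 for spt5_194 and 0.26 for 6-azauracil. With the RNA polymerase II column over 6284 probes they were 0.36 for spt5_194 and 0.27 for 6-azauracil. Values were used as deposited, and those with either sign turned are given for counts past 2-fold, correlations and list medians here or in the closing section, and not for single genes.

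The columns were centred alike and spread unequally. Their medians were -0.01 for spt5_194 and 0.01 for 6-azauracil, and their robust SDs over genes were 0.14 for spt5_194 and 0.29 for 6-azauracil. The median difference was -0.015 over all genes, with 47.8% of genes above 0 and 52.2% below. Across the 5661 genes the columns had a Spearman correlation of 0.25, and the correlation was 0.34 within ribosomal protein genes with an intron, 0.43 within those without one and 0.21 within other intron genes. Among genes above the column median in their higher column it was 0.01. That choice leaves out genes low in both columns, which lowers a correlation by construction. With either sign turned the correlation over all genes was -0.25. These points share the array design and its probes.

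Ribosomal protein genes with an intron were higher in spt5_194. Their median log2 ratio was 0.55 in spt5_194 and -0.04 with 6-azauracil, and the median difference was 0.60. In the spt5_194 column 82 of the 89 genes passed 0.3, beside 469 of all 5661 genes. With 6-azauracil, where the upper quartile of all genes was 0.21, 2 of the 89 did. Conversely, 5 genes lay below 0 in spt5_194 and 52 with 6-azauracil. Of all 5661 genes, 2653 were above 0 in spt5_194 and 2923 with 6-azauracil, so the count of 52 is near the share over all genes. The difference was above 0 for 85 of 89 genes, beside 47.8% of all genes, and above 0.58 (1.5-fold) for 46 of 89, beside 4.91% of all genes. The median of these genes stood at percentile 96.2 of all genes in spt5_194 and 42.4 with 6-azauracil. Genes of the large subunit had medians of 0.55 in spt5_194 and -0.04 with 6-azauracil, and those of the small subunit 0.57 in spt5_194 and -0.04 with 6-azauracil. The list's difference stayed positive when both columns were brought to one distribution or one spread, and was 0.45 with the 6-azauracil sign turned and -0.45 with the spt5_194 sign turned.

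**Figure D1:**
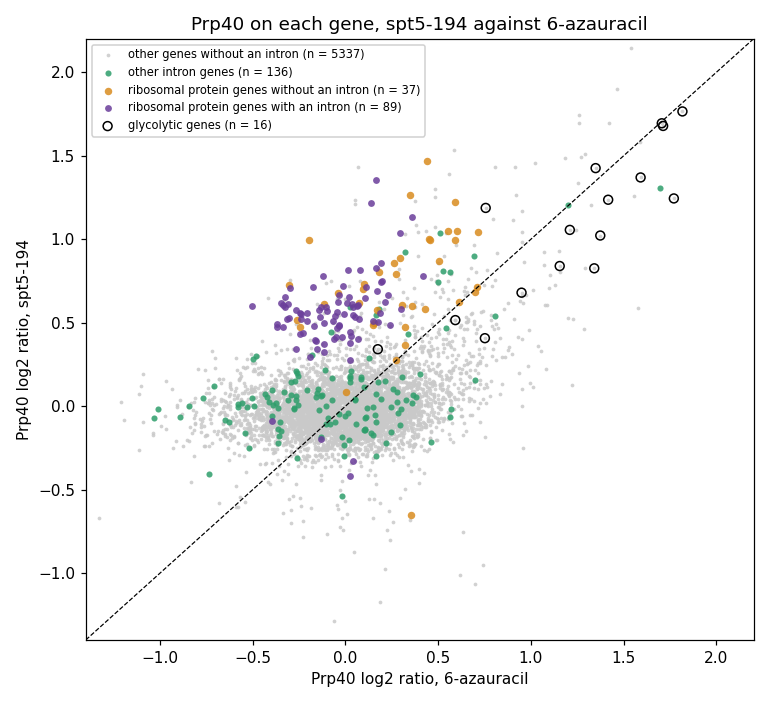
Each point is a gene, with its Prp40 log2 ratio with 6-azauracil on the horizontal axis and in spt5_194 on the vertical axis, coloured by class, with glycolytic genes ringed and the dashed line marking equal values. Ribosomal protein genes with an intron lie mostly near 0.55 in spt5_194 and near 0 with 6-azauracil, glycolytic genes are high in both, and 82 genes lie outside the axes.

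Apart from RPL30, the intron genes named next are the 10 with the largest upward differences under the naming rule. Their separation follows from that choice. At the other end the same rule took intron genes outside the ribosome, among them UBC5, NMD2 and HFM1, which belong to the low set described below. RPL28, which codes for a protein of the large subunit, had 1.35 in spt5_194 and 0.16 with 6-azauracil, a difference of 1.19. RPS7A had 0.60 in spt5_194 and -0.51 with 6-azauracil, where it was the lowest of the 126 ribosomal protein genes. RPS13 had 1.22 in spt5_194 and 0.14 with 6-azauracil. RPL25 had 0.71 in spt5_194 and -0.30 with 6-azauracil. These 4 are the members of the class past a 2-fold difference upward, beside 0.424% of all genes. RPS17A, RPL39, RPS27B, RPS23A, RPL36A and RPS23B came next, with differences between 0.98 for RPS17A and 0.90 for RPS23B. RPL30, whose protein binds its own transcript, had 0.82 in spt5_194 and 0.08 with 6-azauracil.

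Ribosomal protein genes without an intron were also higher in spt5_194, but they stood above 0 with 6-azauracil too. Their medians were 0.70 in spt5_194 and 0.31 with 6-azauracil. The difference was positive for 35 of 37, beside 47.8% of all genes, with a median of 0.50. In spt5_194 34 of 37 passed 0.3, beside 469 of all 5661 genes. With 6-azauracil, where the upper quartile of all genes was 0.21, 19 did. Intron genes of the ribosome lay 0.15 below the intronless ones in spt5_194 and 0.35 below them with 6-azauracil, on the medians. The polymerase levels of the classes differ, with medians of 0.89 for the intron class and 1.15 for the intronless class in the RNA polymerase II column. Within one band of that column, 0.8 to 1.4, the 50 intron genes had medians of 0.60 in spt5_194 and -0.04 with 6-azauracil, and the 22 intronless genes 0.62 in spt5_194 and 0.17 with 6-azauracil. Across the band all 50 intron genes and 20 of the 22 intronless genes had a positive difference. RPS31, an intronless gene that codes for a ubiquitin fusion, had 1.47 in spt5_194 and 0.44 with 6-azauracil, and RPS22A had 0.73 in spt5_194 and -0.30 with 6-azauracil. The list's difference was 1.00 when each column was divided by its robust SD, where that of the intron class was 0.90. It was 0.96 with the 6-azauracil sign turned and -0.96 with the spt5_194 sign turned.

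Duplicated ribosomal protein genes regroup genes already counted above. Of all 126 ribosomal protein genes, 120 were higher in spt5_194, so the counts by pair are not separate support. Of 52 pairs, 46 had both copies higher in spt5_194, 6 had 1 copy higher and none had neither. The gap between copies had a median of 0.13 in spt5_194 and 0.17 with 6-azauracil. Near-identical copies share hybridisation, so the copies are not separate measurements. RPL8A and RPL8B, both without an intron, had 1.27 and 1.00 in spt5_194, against 0.35 and 0.46 with 6-azauracil. RPL7A and RPL7B, both intron genes that host a snoRNA, had 0.57 and 0.59 in spt5_194, against -0.14 and -0.13 with 6-azauracil. Some pairs split instead, among them those named here. RPL31B stood at -0.42 in spt5_194 beside 0.55 for RPL31A, and RPS19A at -0.33 beside 0.48 for RPS19B. RPS18A, at -3.93 in spt5_194 and -0.06 with 6-azauracil, belongs to a set of very low spots described below, and its partner RPS18B had 0.56 in spt5_194 and -0.21 with 6-azauracil.

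**Figure D2:**
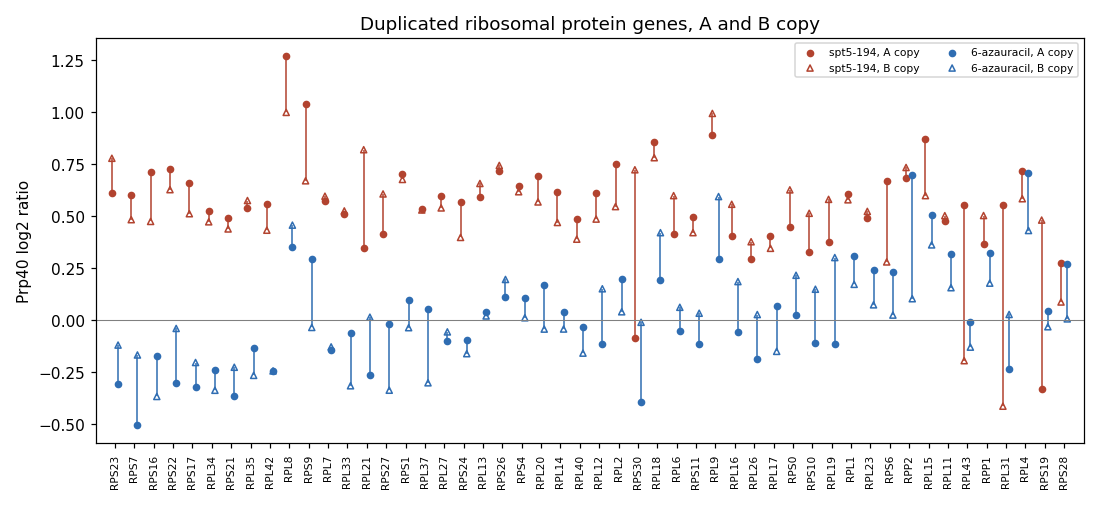
Prp40 log2 ratios of the A copy (circles) and B copy (open triangles) of 50 duplicated ribosomal protein pairs, spt5_194 left and 6-azauracil right within each pair, sorted by the mean difference, with a line joining copies. RPS18 is left out because RPS18A stands at -3.93, and among the pairs drawn those that split most in spt5_194 are RPL31, RPS30, RPS19 and RPL43.

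Intron genes outside the ribosome stayed close to 0 in both columns. The medians of 136 genes were 0.02 in spt5_194 and -0.01 with 6-azauracil. The difference was positive for 78 of 136, beside 47.8% of all genes, and 10 passed 0.58, beside 4.91% of all genes. Lower by more than 1.5-fold were 7, beside 3.57% of all genes. The median difference of 0.13 became -0.06 with the 6-azauracil sign turned. Single genes of the class differed in both directions. YRA1, an mRNA export factor whose intron regulates its own level, had 1.30 in spt5_194 and 1.70 with 6-azauracil. ACT1, which codes for actin, had 0.54 in spt5_194 and 0.81 with 6-azauracil. DBP2, an RNA helicase with a long intron, had 0.58 in spt5_194 and 0.18 with 6-azauracil, and GCR1, an activator of glycolytic genes, had -0.02 in spt5_194 and 0.30 with 6-azauracil. Over 4 bins of the polymerase column, lowest to highest, the median differences were 0.30, -0.02, 0.14 and 0.12, with no steady order. Among the 25 genes in the lowest bin the medians were -0.02 in spt5_194 and -0.36 with 6-azauracil. In the highest bin, 43 genes had medians of 0.16 in spt5_194 and 0.19 with 6-azauracil. Meiotic intron genes, which vegetative cells keep nearly silent, gave medians of -0.07 in spt5_194 and -0.15 with 6-azauracil over 13 genes.

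The 8 snoRNA host genes were all higher in spt5_194, beside 47.8% of all genes, with medians of 0.72 in that column and 0.24 with 6-azauracil. They include TEF4 and EFB1 (translation elongation factors), ASC1 (a ribosomal scaffold protein) and IMD4. ASC1 had 0.92 in spt5_194 and 0.32 with 6-azauracil. Of the 8, 3 are also ribosomal protein genes counted above. With the spt5_194 sign turned the median difference was -0.98.

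The columns also differed in their correlation with transcription, by an amount that varied between gene classes. Over all 225 intron genes the Spearman correlation with RNA polymerase II was 0.74 for spt5_194 and 0.29 for 6-azauracil, and with the Spt5 profile it was 0.80 for spt5_194 and 0.14 for 6-azauracil. Over the 89 ribosomal protein genes with an intron the correlations with polymerase were 0.62 for spt5_194 and 0.25 for 6-azauracil, and over the 136 other intron genes 0.48 for spt5_194 and 0.40 for 6-azauracil. The 225 genes pool these classes, which differ in polymerase level. Over the 37 ribosomal protein genes without an intron the correlations with polymerase were 0.67 for spt5_194 and 0.47 for 6-azauracil. Over 5337 other genes without an intron they were 0.33 for spt5_194 and 0.27 for 6-azauracil. Over all 5661 genes the spt5_194 column had 0.28 with the Mud2 profile, a protein at the branch point, and the 6-azauracil column -0.41. Those profiles come from other strains and from cells without either condition.

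**Figure D3:**
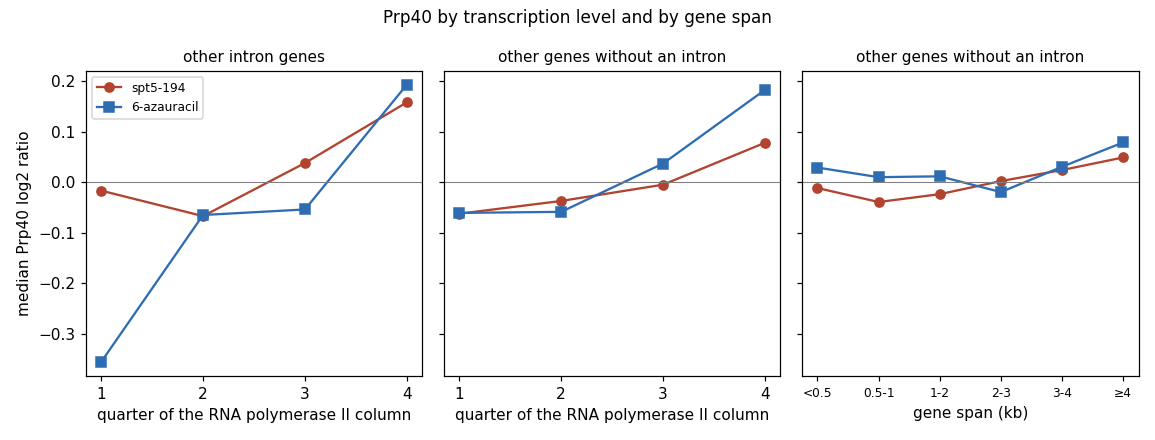
Median Prp40 log2 ratio in spt5_194 (circles) and with 6-azauracil (squares) in 4 bins of the RNA polymerase II column, lowest to highest, for 136 other intron genes and 5337 other genes without an intron, and by gene span for the genes without an intron. Other intron genes in the lowest bin are at -0.02 in spt5_194 and -0.36 with 6-azauracil, and medians by span stay within 0.1 of 0.

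Glycolytic genes, intronless and highly transcribed, were high in both columns, with medians of 1.12 in spt5_194 and 1.35 with 6-azauracil over 16 genes. Lower in spt5_194 were 13 of them, beside 52.2% of all genes. The median difference of -0.17 became 0.64 when each column was divided by its robust SD, and 2.33 with the 6-azauracil sign turned. TDH3, which codes for a glyceraldehyde-3-phosphate dehydrogenase, had 1.77 in spt5_194 and 1.82 with 6-azauracil. PGK1, the phosphoglycerate kinase gene, had 1.24 in spt5_194 and 1.77 with 6-azauracil. PFK1, a phosphofructokinase subunit, ran the other way with 1.19 in spt5_194 and 0.76 with 6-azauracil.

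Histone genes were higher in spt5_194, as 7 of 8 showed beside 47.8% of all genes, with medians of 1.17 in spt5_194 and 0.44 with 6-azauracil. The median difference was 0.58, 1.39 when divided by the robust SD, and -1.61 with the spt5_194 sign turned. HHF1, an H4 gene, had 1.39 in spt5_194 and 0.56 with 6-azauracil. HTA2, an H2A gene, had 1.30 in spt5_194 and 0.48 with 6-azauracil. HTA1 had 0.06 in spt5_194 and 0.24 with 6-azauracil, and HTB1 had -0.06 in spt5_194 and -0.29 with 6-azauracil.

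Heat-shock genes leaned toward 6-azauracil, and this lean also depends on scale. The medians of 17 genes were 0.35 in spt5_194 and 0.62 with 6-azauracil, and 14 were lower in spt5_194, beside 52.2% of all genes. The median difference of -0.30 became 0.12 when divided by the robust SD and 0.88 with the 6-azauracil sign turned. HSP12, a small membrane-associated stress protein, had 0.59 in spt5_194 and 1.58 with 6-azauracil. SSA2, an Hsp70 chaperone, had 1.26 in spt5_194 and 1.56 with 6-azauracil. Genes of amino acid synthesis showed 40 of 49 lower in spt5_194, beside 52.2% of all genes, with medians of -0.0049 in spt5_194 and 0.18 with 6-azauracil. With the 6-azauracil sign turned, 33 of 49 were higher in spt5_194 and the median difference was 0.18. GDH1, a glutamate dehydrogenase, had 0.13 in spt5_194 and 1.22 with 6-azauracil, and ASN1, an asparagine synthetase, had 0.24 in spt5_194 and 0.98 with 6-azauracil. One or more members of the heat-shock (HSP42), amino acid (TRP4, THR1 and HOM2), translation (SSZ1) and elongation (SPT6) lists lie in the set of very low spots, and no list changed direction without that set.

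Genes of the nucleotide pathway touched by the drug had list medians close together in the columns as deposited. A list of 10 genes, called the guanine list, was written for guanine nucleotides and the response to 6-azauracil. Not all of its members make guanine nucleotides. Its medians were 0.12 in spt5_194 and 0.11 with 6-azauracil, with 5 higher and 5 lower in spt5_194. That count was 8 higher of 10, with median differences of 0.08 and 0.09, when both columns were brought to one distribution or divided by the robust SD. IMD3 had 0.52 in spt5_194 and 1.22 with 6-azauracil, IMD2 had 0.47 in spt5_194 and 0.82 with 6-azauracil, and IMD4, the copy with an intron, had 1.04 in spt5_194 and 0.51 with 6-azauracil. The IMD genes are close in sequence and can share hybridisation. SDT1, a pyrimidine nucleotidase that protects against the drug, had -0.16 in spt5_194 and -0.70 with 6-azauracil. Over 11 genes of pyrimidine synthesis and uptake the medians were 0.06 in spt5_194 and 0.18 with 6-azauracil. Lists of 23 elongation factors and polymerase subunits and of 20 early splicing factors had median differences of 0.01 for the first and 0.03 for the second. Translation factors and chaperones had medians of 0.42 in spt5_194 and 0.55 with 6-azauracil over 15 genes. Gene by gene, 10 of the 15 were higher in spt5_194, beside 47.8% of all genes. Their median difference was 0.06, and 0.29 when divided by the robust SD. The 5 galactose genes had medians of 0.04 in spt5_194 and 0.12 with 6-azauracil.

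**Figure D4:**
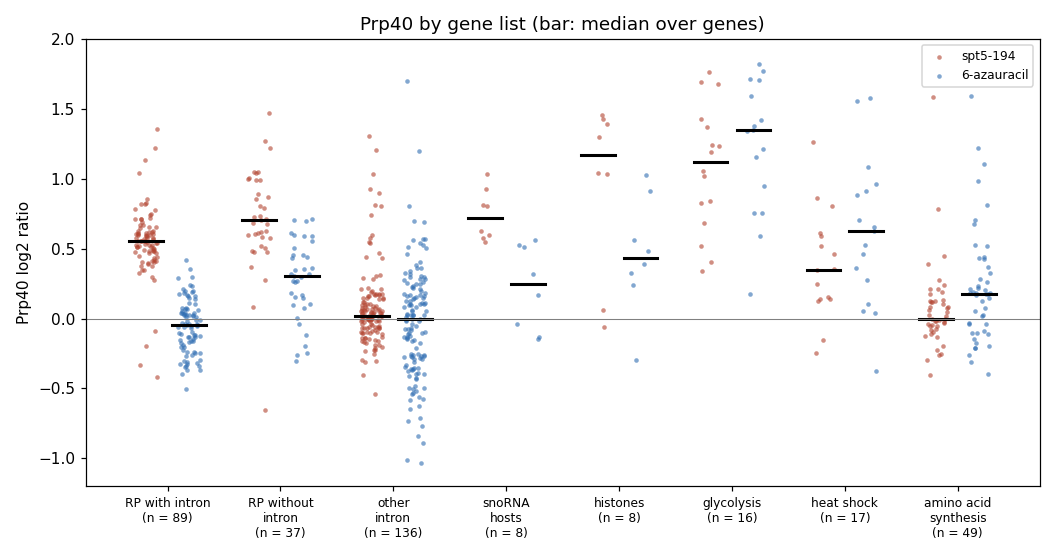
Prp40 log2 ratio of each gene in 8 lists, spt5_194 left and 6-azauracil right, with the median over genes as a bar (RP, ribosomal protein). The ribosomal protein, snoRNA host and histone lists are higher in spt5_194, glycolysis and heat shock are higher with 6-azauracil on this scale and the other way when divided by the robust SD, and values below -1.2 are off the axis.

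Median differences varied little with gene span. Among other genes without an intron the median difference was -0.05 under 0.5 kb (585 genes) and -0.01 at 4 kb or more (186 genes), 0.04 apart. Of the 186 genes at 4 kb or more, 90 had a difference above 0 and 96 below. The long genes VPS13 and TRA1, outside the set of very low spots, differed more, but they were named by their difference and not by their span. VPS13, a lipid transport protein, had -0.75 in spt5_194 and 0.63 with 6-azauracil, and TRA1, a subunit of the SAGA and NuA4 complexes, had -0.25 in spt5_194 and 0.96 with 6-azauracil. Neighbouring genes had a Spearman correlation of their differences of 0.21 over 5645 adjacent pairs and 0.03 for genes 5 apart, and chromatin fragments can reach a neighbouring spot.

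Past a 2-fold difference the counts were uneven. In all, 24 genes (0.424%) were higher in spt5_194 and 94 (1.66%) were lower. The split was 92 higher and 89 lower when both columns were brought to one distribution, and 104 higher and 105 lower when divided by the robust SD. Of the 94 lower genes, 81 belong to 82 genes that stand below -1.5 in the spt5_194 column, apart from the rest by an empty stretch between -1.72 and -1.28. Without those 82 genes the counts were 24 higher and 13 lower. The 82 had a median of -3.81 in spt5_194 and 0.03 with 6-azauracil, where 78 of them lay within 1 of 0. They include SPT6, a histone chaperone of elongation, at -4.09 in spt5_194 and 4.07 with 6-azauracil. YPS7, an aspartyl protease, had -4.58 in spt5_194 and 3.67 with 6-azauracil, and FCF1, a ribosome assembly factor, had -4.85 in spt5_194 and 3.21 with 6-azauracil. These are the 3 highest genes of the 6-azauracil column. Of the 82 genes, 6 share the exact value -2.2146, among them NMD2, a factor of nonsense-mediated decay. The column combines 3 replicates, and the limit of its scale is 6.6439 in size. Only genes at that limit in the combined value were left out. The values -2.2146 and 2.2146 also recur in other columns for genes of the low set, for example HNM1 and COX17. A link between the shared value and the limit was not tested.

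The 82 low genes stood out in other columns of the table too. In at least 1 of the 4 columns of cells at 37 °C, 69 of 82 (84.1%) lay beyond 2 in size, against 56 of 5579 other genes (1.00%). In Brr2 with sub2-85, 34 of the 82 were above 2. In Lea1 with SUB2 wild type, 25 were below -2. They also sit unevenly on the genome, with 58 of 82 (70.7%) on chromosomes IV, VII and VIII, which hold 26.6% of genes. The intron genes among them are 5, UBC5, NMD2, HFM1, BIG1 and RPS18A, of which BIG1 was named after its value was seen. The part of array or probe in these values was not tested.

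**Figure D5:**
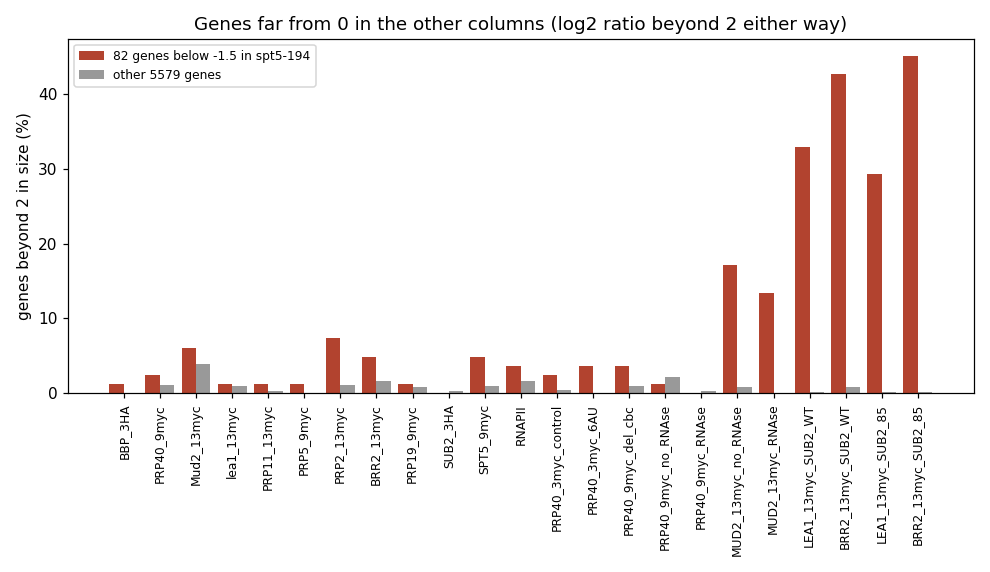
Percentage of genes beyond a log2 ratio of 2 in either direction in each other column of the table, for the 82 genes below -1.5 in spt5_194 (red) and the other 5579 genes (grey). The red bars are tallest in the 4 columns at 37 °C on the right, between 29.3% and 45.1%, and at most 7.3% in the columns outside Mud2 with and without RNase.

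Outside the low set, genes at the ends were few. PAL1, which codes for a protein of polar growth, had 0.97 in spt5_194 and -1.93 with 6-azauracil, the lowest value of that column. Cyclophilin gene CPR1 had 1.24 in spt5_194 and 0.05 with 6-azauracil. In the other direction MON2 had -1.07 in spt5_194 and 0.70 with 6-azauracil, HUL5 had -0.95 in spt5_194 and 0.74 with 6-azauracil, and DAN1, a cell wall protein of anaerobic cells, had -1.01 in spt5_194 and 0.62 with 6-azauracil. The highest gene of the spt5_194 column was CCW12, a cell wall mannoprotein, with 2.14 in spt5_194 and 1.54 with 6-azauracil.

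The extremes of the 6-azauracil column were read in the other columns. The 93 genes below -0.7 with 6-azauracil had a median of -0.05 in spt5_194, and 1.18 in the Mud2 profile. The 140 genes above 0.7 with 6-azauracil had a median of 0.53 in spt5_194, 1.30 in the polymerase column and -0.22 in the Mud2 profile. Of these 140, 99 were above 0.3 in spt5_194, and of the 93 low genes 2 were, beside 469 of all 5661 genes.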

How the data were processed

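The deposited values are log2 ratios of the 2 channels per probe. Per the labels' protocols, DNA was amplified by linker-mediated PCR, labelled with Cy3 and Cy5 with dyes reversed in at least 1 replicate, and 3 biological replicates per column were combined by the authors in Rosetta Resolver. The sources used here do not give the normalisation, the way of combining or the ratio's direction. Arrays carry no depth, and their number limits precision. Probes were matched by locus to the RefSeq table of assembly R64, used for names, neighbours and spans only. Differences are spt5_194 minus 6-azauracil, computed with Python 3.11.15, numpy 2.4.6 and pandas 2.3.3, with no test and a threshold of 1 (2-fold). The script was tested on simulated data. Members and gene lists were chosen with earlier results of these data known. Introns come from a list written from memory. Named genes were 10 intron and 10 intronless genes at each end whose higher column passed percentile 75 or 95, the 3 highest of each column, list members, duplicated ribosomal protein genes, ACT1, YRA1, DBP2, GCR1 and RPL30. TRA1 entered once the low set was left out. Some genes that the rule takes are not reported here.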

Additional observations from a re-analysis of the deposited data

How the results depend on the processing

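No paired analysis was possible because each condition is 1 combined column with no replicate number, and for the same reason no replicate could be left out. Median centring and keeping the values at the limit changed no direction among the results computed under them. Quantile normalisation gave 92 genes higher in spt5_194 and turned early splicing factors to -0.041 and galactose genes to 0.0236. Division by the robust SD gave 104 genes higher, 0.90 for ribosomal protein genes with an intron, 1.00 for those without, 1.39 for histones, 0.64 for glycolysis, 0.12 for heat shock, -0.0063 for meiotic genes, -0.0607 for early splicing and 0.0131 for galactose genes. Keeping only genes above the column median gave 55 genes lower, a correlation of 0.0061, -0.038 for the guanine list and -0.11 for elongation genes. With the 6-azauracil sign turned, 207 genes were higher and 112 lower, and the correlation was -0.25. The medians were 0.45 and 0.96 for intron-bearing and intronless ribosomal protein genes, -0.0597 for other intron genes, 2.33 for glycolysis and 1.61 for histones. They were 0.88 for heat shock, -0.32 for meiotic, 0.18 for amino acid, 0.32 for pyrimidine, -0.0191 for elongation, -0.15 for early splicing and 0.10 for galactose genes. With the spt5_194 sign turned, 112 genes were higher and 207 lower, and the correlation was -0.25. The medians were then -0.45 and -0.96 for intron-bearing and intronless ribosomal protein genes, 0.0259 for other intronless genes, -2.33 for glycolysis and -1.61 for histones. They were -0.88 for heat shock, -1.01 for translation, -0.98 for snoRNA hosts and -0.22 for the guanine list, and the value was -0.10 for long minus short genes. Leaving out the 82 low genes, chosen after seeing the data, gave 13 lower. A 1.5-fold threshold gave 278 higher and 202 lower, and a 4-fold threshold gave 1 higher and 78 lower. Turned signs and thresholds set the change by construction, and keeping only genes above the column median lowers the correlation by construction. The cause of the other changes was not tested.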
